A study of Mus musculus with 18 samples.

Results

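Islets of 16-week-old C57BL/6J ob/ob mice were compared with islets of lean C57BL/6J control mice of the same age. Every array labelled with that genotype, strain and age in the larger of 2 value tables was taken, which gave 2 arrays of ob/ob islets and 2 arrays of lean islets. These are 4 of the 16 arrays in that table and of the 18 samples in the series. The remaining groups of the table were ob/ob and lean 6J islets at 6 weeks, and islets of C57BL/KsJ db/db mice and lean KsJ mice at 6 and 16 weeks, with 2 arrays each. ob/ob mice carry an inactivating mutation of Lep, the gene of the satiety hormone leptin, and db/db mice lack the long form of its receptor. Both become obese, and the study treats the 6J ob/ob mouse as resistant to diabetes and the KsJ db/db mouse as prone to it. Islets were picked by hand from mice of the Garvan Institute colonies, and total RNA was labelled with biotin for Affymetrix arrays. Nothing in the labels tells whether a group's 2 arrays hold RNA of separate animals or of pooled islets, so the p-values below measure the spread between these arrays alone, and precision is limited by their number.

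Beta cells fold and package large amounts of proinsulin, and they release insulin when glucose metabolism closes potassium channels and opens calcium channels. In obesity the demand for insulin grows. In mice, islets can meet it by raising the capacity of the endoplasmic reticulum (ER) to fold protein and by beta-cell division, and a loss of mature beta-cell features, with the appearance of genes such as Aldh1a3, has been described where they fail.

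The 4 arrays carried the islet hormones and defining endocrine genes at high signal. Ins2, one of the mouse insulin genes, stood at a log2 signal of 12.15 and 12.14 in ob/ob islets, against 11.91 and 12.01 in lean islets. Gcg, the glucagon gene, stood at 13.09 and 13.21 in ob/ob islets, against 13.37 and 13.44 in lean islets, and Sst, the somatostatin gene, at 12.97 and 12.97 in ob/ob islets, against 13.23 and 13.37 in lean islets. Lep lay under the cutoff for dim genes on all 4 arrays (2.22 and 1.97 in ob/ob islets, 2.07 and 2.003 in lean islets), so its transcript does not check the genotype labels. The Y-linked gene Uty was dim on all 4 (2.20 and 2.33 in ob/ob islets, 2.17 and 2.26 in lean islets). Xist, the RNA of the inactive X chromosome, stood at 8.62 and 8.60 in ob/ob islets, against 9.52 and 9.60 in lean islets, a called difference of -0.95 ± 0.12 (SE). Within the groups the arrays correlated at 0.976 (ob/ob) and 0.980 (lean) across transcript clusters, and the SD of the difference between the 2 arrays was 0.371 (ob/ob) and 0.315 (lean), against up to 0.868 in lean KsJ islets of 16 weeks. One array stood apart in a named program. Interferon-induced and antigen presentation genes averaged 5.64 on ob/ob replicate 1 and 6.95 on ob/ob replicate 2, against 6.03 and 5.88 on the lean arrays, and results that rest on that list are given without replicate 2 below.

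A moderated linear model (limma) was fitted to these 4 arrays alone, and a gene was called at a Benjamini-Hochberg adjusted p below 0.05 over all genes tested. In ob/ob islets 533 genes were higher and 737 lower than in lean islets, 1270 of 15526 tested, or 8.18% (3.43% higher and 4.75% lower). The called differences ranged upward from 0.60 on the log2 scale in absolute size, with a median of 0.95. Over all genes the median difference was -0.02, and 47.6% of the differences were above 0. For all 1270 genes the ob/ob arrays did not overlap the lean arrays, which with 2 arrays a group is a weak criterion. Where called genes are said below not to overlap, this describes them and adds nothing to the call. The smallest adjusted p was 0.0123, and 4806 genes had an unadjusted p below 0.05. An exact permutation test of 2 against 2 arrays cannot give a two-sided p below 0.333, so the calls lean on the spread shared across genes, and 1 gene passed with no sharing. The count depended on each array: 183 genes passed without ob/ob replicate 1 and 140 without ob/ob replicate 2, and 0 with either lean array left out, where 3256 (without lean replicate 1) and 3091 (without lean replicate 2) had an unadjusted p below 0.05. All 1270 differences kept their direction in these 4 fits, and the counts of every list below were 0 with either lean array left out. When all 16 arrays shared the estimate of the spread, 38 genes passed (12 higher and 26 lower), 37 of them among the 1270. That fit holds arrays of other groups that stood apart: without lean KsJ 16-week replicate 2, lean 6J 6-week replicate 2 and db/db 16-week replicate 2 there were 116, and without ob/ob 6-week replicate 2 as well there were 1442, of which 1011 were among the 1270.

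**Figure D1:**
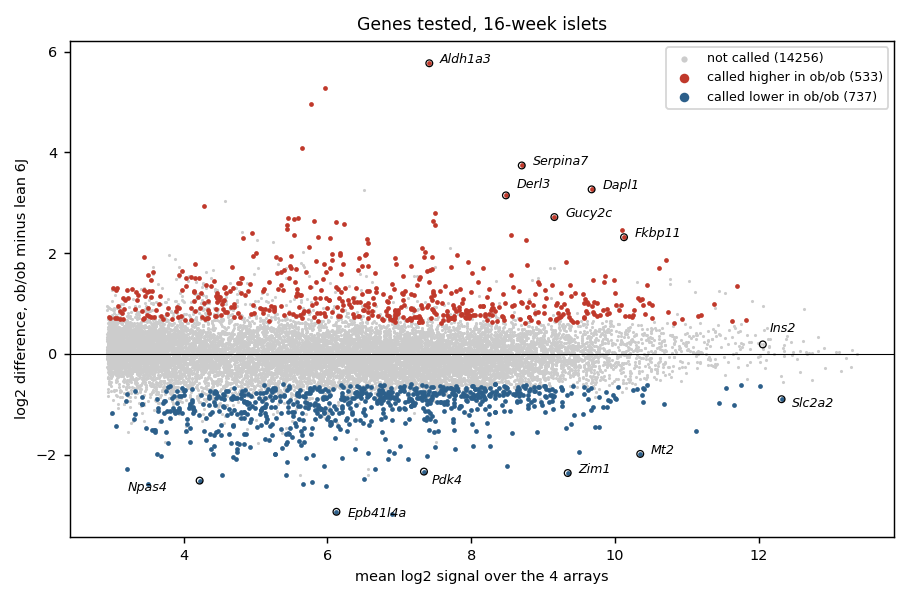
Log2 difference between ob/ob and lean 6J islets at 16 weeks (vertical) against the mean log2 signal over the 4 arrays (horizontal), 1 point per gene tested, with called genes in colour. The 533 genes called higher and 737 called lower are spread over the whole signal range, and Aldh1a3 stands highest at 5.77.

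The gene with the largest difference was Aldh1a3, a retinaldehyde dehydrogenase that makes retinoic acid. It had log2 signals of 10.43 and 10.16 in ob/ob islets, against 4.31 and 4.76 in lean islets, a difference of 5.77 ± 0.20 (SE) or 54.5-fold (adjusted p = 0.0123). Both ob/ob arrays lay far above both lean arrays. Serpina7 encodes thyroxine-binding globulin, the blood carrier of thyroid hormone. Its signals were 10.59 and 10.55 in ob/ob islets, against 6.94 and 6.72 in lean islets, a difference of 3.74 ± 0.14 (adjusted p = 0.0123). Gucy2c, the intestinal receptor for guanylin and uroguanylin, had 10.51 and 10.52 in ob/ob islets, against 7.81 and 7.78 in lean islets, a difference of 2.71 ± 0.12 (adjusted p = 0.0123). The 2 arrays of each group lay close together in both genes. Dapl1, a small protein linked to epithelial differentiation, was at 11.10 and 11.52 in ob/ob islets, against 8.03 and 8.05 in lean islets, a difference of 3.26 ± 0.18. Aass, the bifunctional enzyme that starts lysine breakdown, was at 7.76 and 7.62 in ob/ob islets, against 4.03 and 3.16 in lean islets, and the lean arrays differed from each other more than the ob/ob arrays. Aass and some other genes that rose are set beside the acinar signal below.

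Ntn1, the guidance cue netrin 1 and another of the 15 named genes that rose most, was at 6.75 and 7.14 in ob/ob islets, against 4.41 and 4.06 in lean islets, a difference of 2.71 ± 0.20. C1qtnf1, a secreted relative of adiponectin, was at 7.10 and 7.16 in ob/ob islets, against 4.23 and 4.75 in lean islets, a difference of 2.64 ± 0.20. Cck, the gut and brain peptide cholecystokinin, was at 7.14 and 6.29 in ob/ob islets, against 4.24 and 4.06 in lean islets, so replicate 1 of ob/ob islets was the higher, and its difference was 2.57 ± 0.30 (adjusted p = 0.0247). Sod3, the extracellular superoxide dismutase, rose by 2.62 ± 0.20, the antimicrobial lectin Reg3b by 2.70 ± 0.26, and the small GTPase regulators Rapgef5 and Rasl10b by 2.79 ± 0.17 and 2.67 ± 0.12. Slc35f4, an orphan solute carrier, had 6.14 and 5.37 in ob/ob islets, against 2.78 and 2.86 in lean islets, and its lean signals lay under the cutoff for dim genes. Derl3 and Kdelr3, the other 2 of the 15, belong to the ER and are described with that group. Vgf, which encodes a granule peptide precursor, was at 8.41 and 8.34 in ob/ob islets, against 6.21 and 6.32 in lean islets, a difference of 2.11 ± 0.12 (adjusted p = 0.0126). Nucb2, the precursor of nesfatin, was at 12.38 and 12.36 in ob/ob islets, against 11.09 and 10.95 in lean islets, a difference of 1.35 ± 0.13. Of 25 granule and prohormone processing genes these 2 rose and 1 fell, against 3.43% and 4.75% of all genes.

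**Figure D2:**
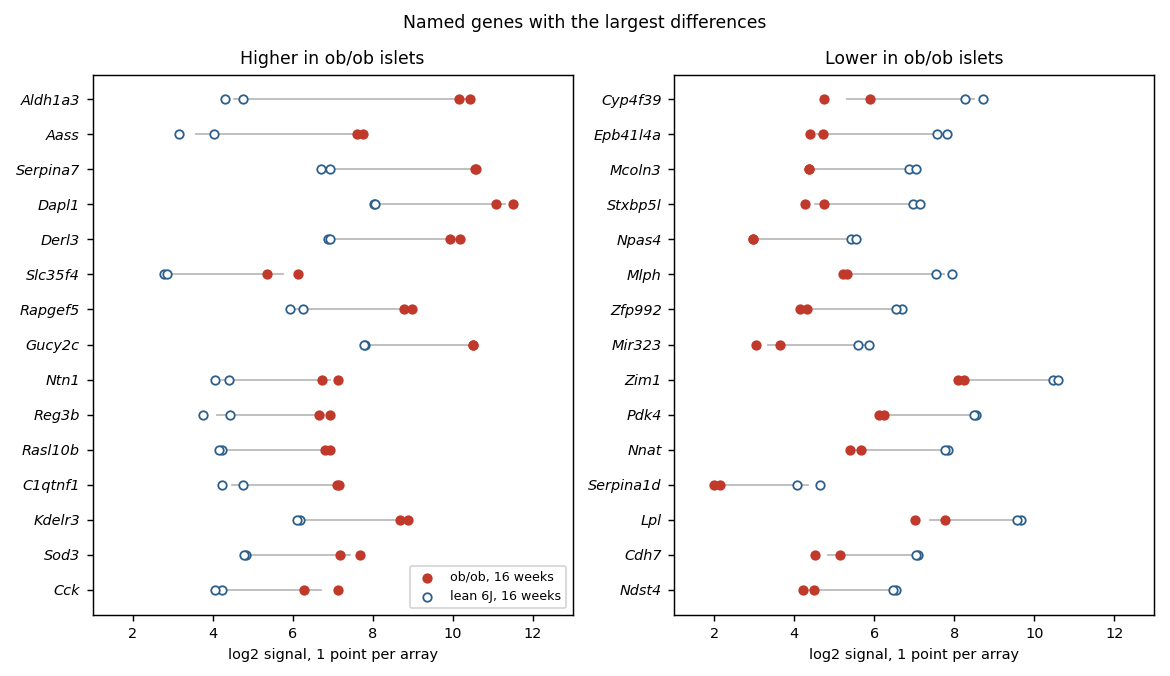
Log2 signal per array for the 15 named genes with the most positive (left) and the 15 with the most negative (right) difference, ob/ob arrays as filled and lean arrays as open points, with a line joining the group means. All 30 genes were chosen to have the ob/ob arrays on one side of both lean arrays, and their differences run from 5.77 in Aldh1a3 to -3.18 in Cyp4f39.

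Among genes that fell, Cyp4f39, a fatty acid omega-hydroxylase, had log2 signals of 4.73 and 5.89 in ob/ob islets, against 8.27 and 8.71 in lean islets, a difference of -3.18 ± 0.41 (adjusted p = 0.0297). Its 2 ob/ob arrays were more than 1 log2 unit apart. Epb41l4a, which links membrane proteins to the cytoskeleton, was at 4.39 and 4.72 in ob/ob islets, against 7.58 and 7.81 in lean islets, a difference of -3.14 ± 0.17 (adjusted p = 0.0123). Mcoln3, a cation channel of endosomes and lysosomes, was at 4.36 and 4.37 in ob/ob islets, against 6.86 and 7.04 in lean islets, a difference of -2.58 ± 0.13. In both genes the groups were separated by more than 2 log2 units. Stxbp5l, the tomosyn relative that restrains vesicle fusion, was at 4.27 and 4.75 in ob/ob islets, against 6.98 and 7.13 in lean islets, a difference of -2.55 ± 0.20. Mlph, a Rab27 effector that tethers organelles to myosin, was at 5.22 and 5.32 in ob/ob islets, against 7.55 and 7.95 in lean islets, a difference of -2.48 ± 0.18. Sytl4, the granule-bound Rab27 effector granuphilin, was at 8.32 and 8.62 in ob/ob islets, against 9.47 and 9.49 in lean islets, a smaller fall of 1.01.

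Zim1, an imprinted zinc finger gene, was bright in lean islets. Its signals were 8.09 and 8.23 in ob/ob islets, against 10.46 and 10.59 in lean islets, a difference of -2.37 ± 0.13 (adjusted p = 0.0123). Nnat, the imprinted ER membrane protein neuronatin, was at 5.38 and 5.65 in ob/ob islets, against 7.85 and 7.77 in lean islets, a difference of -2.30 ± 0.15. Pdk4, the kinase that turns off pyruvate dehydrogenase, was at 6.24 and 6.11 in ob/ob islets, against 8.53 and 8.49 in lean islets, a difference of -2.34 ± 0.13 (adjusted p = 0.0123). The 2 arrays of each group lay within 0.3 of each other in these 3 genes. Lpl, lipoprotein lipase, was at 7.02 and 7.75 in ob/ob islets, against 9.66 and 9.58 in lean islets, a difference of -2.23 ± 0.26. Ndst4, a heparan sulfate sulfotransferase, fell by 2.15, the cadherin Cdh7 by 2.23 and the zinc finger gene Zfp992 by 2.40. Serpina1d was at 2.15 and 1.99 in ob/ob islets, against 4.65 and 4.06 in lean islets, so its ob/ob signals were dim, and its family of near-identical copies makes the identity of the signal uncertain. Of the 1270 called genes, 11 also passed with all 16 arrays, with 13 arrays, with each ob/ob array left out, with a trended variance and with no filter on dim genes. Osgin1, an oxidative stress response gene, was the 1 higher gene among them. The 10 lower genes were Zim1, Ndst4, Eef1a2, Avpr1b, Hhatl, Mamld1, Gfra3, Drc1 and the predicted genes Gm16702 and Gm20554, the last 5 chosen for naming after these fits were seen.

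Genes of protein folding in the ER were higher. Of 35 tested chaperone and unfolded protein response genes 13 were called higher and 0 lower, against 3.43% and 4.75% of all genes, and 32 of 35 differences were above 0, with a median of 0.52. Leaving out 1 array at a time gave medians between 0.48 and 0.56, and called members numbered 4 without ob/ob replicate 1, 3 without replicate 2 and 0 with either lean array left out. Derl3, which helps to move misfolded proteins out of the ER, had log2 signals of 9.92 and 10.18 in ob/ob islets, against 6.89 and 6.92 in lean islets, a difference of 3.14 ± 0.14 or 8.85-fold (adjusted p = 0.0123). Fkbp11, an ER prolyl isomerase, was at 11.32 and 11.24 in ob/ob islets, against 9.07 and 8.87 in lean islets, a difference of 2.31 ± 0.14 (adjusted p = 0.0126). Creld2, an ER disulfide isomerase, was at 11.42 and 11.86 in ob/ob islets, against 9.73 and 9.82 in lean islets, a difference of 1.86 ± 0.19. These separations exceeded 1.5 log2 units between the nearest arrays. Sdf2l1, a chaperone cofactor, was at 11.41 and 11.51 in ob/ob islets, against 9.90 and 9.64 in lean islets, and Sec11c, the catalytic subunit of signal peptidase, was at 10.74 and 10.68 in ob/ob islets, against 9.30 and 9.20 in lean islets, differences of 1.70 ± 0.15 and 1.46 ± 0.12. The other 8 called members were Dnajb11, Manf, Dnajc3, Fkbp2, Edem1, Hyou1, P4hb and Edem2, with differences between 0.66 (Hyou1) and 1.39 (Dnajb11). Hspa5, the central ER chaperone BiP, was not called, at 10.42 and 10.45 in ob/ob islets, against 9.96 and 10.19 in lean islets (adjusted p = 0.162).

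Proteins of the ER to Golgi path were added as a list after the values were seen, and 3 of 31 rose, against 3.43% of all genes. Kdelr3, a receptor that returns escaped chaperones to the ER, was at 8.69 and 8.88 in ob/ob islets, against 6.19 and 6.12 in lean islets, a difference of 2.63 ± 0.13 (adjusted p = 0.0123). Copz2, a coat protein of retrograde vesicles, was at 10.57 and 10.55 in ob/ob islets, against 9.17 and 9.09 in lean islets, and Tmed3, a cargo receptor, at 10.92 and 10.85 in ob/ob islets, against 9.82 and 9.80 in lean islets, differences of 1.43 ± 0.12 and 1.07 ± 0.12. In none of the 3 did the arrays overlap. The stress branch that runs through ATF4 gave another count: of 29 genes 2 rose and 3 fell, against 3.43% and 4.75% of all genes. Phgdh, the first enzyme of serine synthesis, rose by 1.01 and Cth, which makes cysteine, by 1.26, while the stress factor Atf5 fell by 1.15, Trib3, a pseudokinase induced by stress, by 0.80 and the lipoprotein receptor gene Vldlr by 0.69. Ddit3, the gene of the pro-apoptotic factor CHOP, was at 7.04 and 7.07 in ob/ob islets, against 7.43 and 7.50 in lean islets and was not called (adjusted p = 0.0979). Of 22 cytosolic heat shock genes 0 rose and Hspa1a, the inducible Hsp70, fell by 1.22, so 4.55% fell, near the share of all genes that fell.

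Exocrine markers moved in the same direction as the ER genes. Of 27 tested acinar cell genes 7 were higher (Sycn, Pnliprp2, Prss1, Spink1, Bhlha15, Rbpjl and Ctrc) and 0 lower, against 3.43% and 4.75% of all genes. Differences above 0 numbered 25, and the median was 1.39. Without ob/ob replicate 2 the count was 1, and without replicate 1 it was 0. The list averaged 9.34 and 8.76 in ob/ob islets, against 8.10 and 7.42 in lean islets, and 1 of the 32 listed genes was dim. Sycn, the zymogen granule protein syncollin, was at 11.88 and 10.77 in ob/ob islets, against 9.26 and 8.48 in lean islets, so replicate 1 was the higher ob/ob array. Derl3 was higher on replicate 2, but Fkbp11 was higher on replicate 1, and the ER list averaged 10.58 on replicate 1 and 10.55 on replicate 2. In the pair of arrays of 1 group that differed most in acinar genes, lean KsJ of 16 weeks, the acinar median was 3.67 higher on replicate 2 and the median of the 35 ER genes was 0.09 higher, against -0.09 for all genes. Single members did differ there: Derl3 stood at 8.07 on replicate 1 and 9.93 on replicate 2, and Fkbp11 at 9.05 and 11.002, while Creld2 stood at 10.06 and 9.98. Other named genes that rose in ob/ob islets differed in that pair in both directions. Aass stood at 4.64 on replicate 1 and 8.13 on replicate 2, Ntn1 at 4.45 and 8.25, and Rasl10b at 3.8 and 6.05. Phgdh stood at 4.59 and 8.07, and Cth at 3.33 and 7.603. Copz2 stood at 8.97 and 10.69, and Vipr2 at 5.44 and 7.80. Serpina7, at 6.33 and 4.55, and Dapl1, at 8.42 and 6.62, stood lower on replicate 2. So did Gucy2c, at 6.43 and 5.08, and Vgf, at 6.55 and 5.22. The part of acinar RNA in the differences of the ER genes and of these other genes was not tested beyond these values. In whole islets fewer cells of a type and less RNA per cell cannot be told apart.

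The ER stress response element (CCAAT and CCACG with 9 bases of any kind between them, searched on both strands) marks genes that the unfolded protein response controls. It was found in 0.119% of 32851 RefSeq promoters of the GRCm38.p6 build, taken from 250 bases before to 50 bases after a gene start. Among the 28 tested ER genes with a promoter there, 10 held it, and 3 of the 10 called ones did: Derl3, Creld2 and Dnajc3. The Derl3 promoter is shown because this gene had the largest ER difference. It lies at chr10:75893148-75893447 on the plus strand, and the capitals mark the match, which starts at position -156 from the gene start and reads on the opposite strand.
Derl3: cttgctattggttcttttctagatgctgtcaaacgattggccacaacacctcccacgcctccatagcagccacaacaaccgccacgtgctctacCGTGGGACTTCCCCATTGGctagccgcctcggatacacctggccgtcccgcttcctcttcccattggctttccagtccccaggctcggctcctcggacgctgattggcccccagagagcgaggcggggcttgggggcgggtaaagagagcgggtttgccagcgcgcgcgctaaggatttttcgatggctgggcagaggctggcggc
The match is a description of the sequence.

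Genes of DNA replication and mitosis were higher. All 47 tested S and M phase genes had a difference above 0, with a median of 1.07, and 14 of them were called, against 3.43% of all genes. Mcm5, a subunit of the replicative helicase, was at 6.60 and 7.10 in ob/ob islets, against 4.97 and 5.15 in lean islets, a difference of 1.79 ± 0.20 (adjusted p = 0.0242). Mcm2, another helicase subunit, was at 7.61 and 7.77 in ob/ob islets, against 6.35 and 6.55 in lean islets, a difference of 1.24 ± 0.14 (adjusted p = 0.0242). Cdk1, the kinase that starts mitosis, was at 5.82 and 6.39 in ob/ob islets, against 4.49 and 4.50 in lean islets, a difference of 1.60 ± 0.22 (adjusted p = 0.0308). None of these overlapped between groups. Cdt1, which loads the helicase, rose by 0.93 ± 0.12, and Rrm2, a ribonucleotide reductase subunit, by 1.07 ± 0.15. The other called members were Chek1, E2f2, Cdc6, Prc1, Bub1, Kif23, Tpx2, Ccnb2 and Melk, with differences between 0.68 (Melk) and 1.92 (Ccnb2). Mki67, the common proliferation marker, was at 6.01 and 7.03 in ob/ob islets, against 4.52 and 5.41 in lean islets and was not called (adjusted p = 0.0964). The list averaged 5.56 and 6.03 in ob/ob islets, against 4.63 and 4.88 in lean islets, so replicate 2 was the higher ob/ob array, as it was for interferon genes. Without ob/ob replicate 2 the median was 0.84 and 0 members were called, and without ob/ob replicate 1 the median was 1.297 and 8 were called. The G1 regulators did not share the calls: 0 of 21 cyclins and inhibitors of that phase passed in limma (5 at an unadjusted p below 0.05, 3 higher and 2 lower), among them Ccnd2 at 11.19 and 11.41 in ob/ob islets, against 11.48 and 11.56 in lean islets and Cdkn1a at 8.63 and 8.79 in ob/ob islets, against 8.54 and 8.21 in lean islets.

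The cell cycle homology region, TTTGAA on either strand, occurred in 17.9% of the same promoters. Among tested S and M phase genes with a promoter 20 of 40 held it, and among called ones 6 of 13. Mcm2 is shown as the called gene with a match and the smallest p, at chr6:88898731-88899030 on the minus strand, with the match in capitals starting at position -70 from the gene start.
Mcm2: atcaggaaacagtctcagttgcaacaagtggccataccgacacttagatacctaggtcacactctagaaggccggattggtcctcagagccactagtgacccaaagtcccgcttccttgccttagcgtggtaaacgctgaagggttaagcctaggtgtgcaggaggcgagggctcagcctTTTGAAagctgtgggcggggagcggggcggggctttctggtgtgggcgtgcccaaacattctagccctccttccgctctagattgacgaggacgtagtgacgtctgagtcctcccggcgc
The letters are short and frequent, and no binding was measured.

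**Figure D3:**
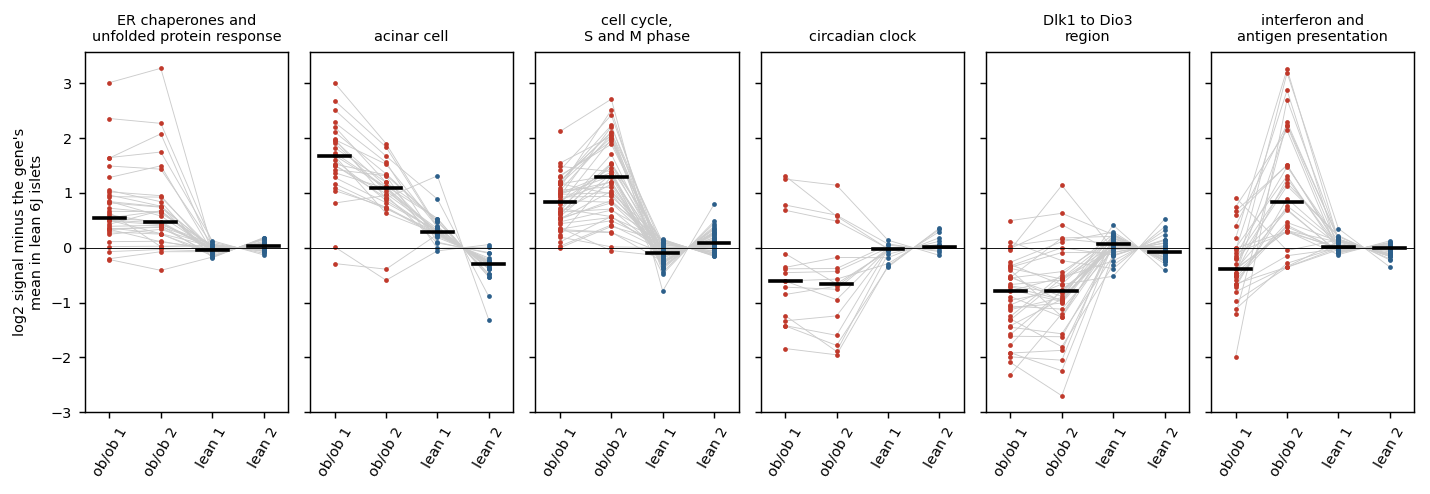
Log2 signal minus the mean of the lean 6J islets for each gene of 6 lists, in the 2 ob/ob and 2 lean arrays of 16 weeks, with grey lines joining a gene and black bars at the median of an array. ER and cell cycle genes lie above the lean level on both ob/ob arrays, clock and Dlk1 to Dio3 genes below it, and interferon genes mainly on ob/ob replicate 2.

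The markers of mature beta cells were lower or did not pass the test. Of 30 tested beta-cell identity genes 0 rose and 6 fell, against 4.75% of all genes that fell, 26 differences were below 0 and the median was -0.33. With either ob/ob array left out, 2 members were called lower. Slc2a2, the glucose transporter GLUT2, had log2 signals of 11.96 and 11.77 in ob/ob islets, against 12.72 and 12.80 in lean islets, a difference of -0.90 ± 0.13 (adjusted p = 0.0345). Gipr, the receptor for the incretin GIP, was at 7.34 and 7.52 in ob/ob islets, against 8.53 and 8.57 in lean islets, a difference of -1.12 ± 0.13. Trpm5, a calcium-activated cation channel, was at 4.64 and 4.69 in ob/ob islets, against 6.27 and 6.27 in lean islets, a difference of -1.60 ± 0.12, and the arrays of each group were nearly identical. Pcx, pyruvate carboxylase, fell by 0.82, beside Nnat and Sytl4 above. The hormone and transcription factor genes themselves were not called. Ins2 differed by 0.19 ± 0.12 (adjusted p = 0.35) and Iapp, the amyloid peptide released with insulin, by 0.26 ± 0.12. Mafa was at 9.26 and 9.59 in ob/ob islets, against 9.77 and 9.97 in lean islets, Pdx1 at 8.93 and 9.01 in ob/ob islets, against 9.16 and 9.12 in lean islets and Nkx6-1 at 10.36 and 10.34 in ob/ob islets, against 10.74 and 10.58 in lean islets. Ucn3, a maturity marker, was at 11.14 and 11.22 in ob/ob islets, against 11.40 and 11.42 in lean islets, and the zinc transporter gene Slc30a8 was at 12.06 and 12.04 in ob/ob islets, against 12.56 and 12.66 in lean islets (adjusted p = 0.0595). Glp1r was at 12.84 and 12.73 in ob/ob islets, against 13.001 and 13.13 in lean islets, and G6pc2 at 12.18 and 12.12 in ob/ob islets, against 12.13 and 12.10 in lean islets, with a difference of 0.03 that changed to -0.0696 under quantile normalization.

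Among 17 tested genes tied to immature or dedifferentiated endocrine cells 5 rose (Aldh1a3, Serpina7, Gucy2c, Cd44 and Cck) and 0 fell, against 3.43% and 4.75% of all genes. The median was 0.04. The list was drawn up with earlier results of these arrays known, so its count is no independent evidence. Cd44, the hyaluronan receptor, was at 8.72 and 8.44 in ob/ob islets, against 6.87 and 6.85 in lean islets, a difference of 1.72 ± 0.15 (adjusted p = 0.0169). Gast, the gastrin gene, was at 6.24 and 5.61 in ob/ob islets, against 5.39 and 5.22 in lean islets and was not called (adjusted p = 0.165), and Npy was at 4.64 and 6.08 in ob/ob islets, against 7.68 and 7.85 in lean islets (adjusted p = 0.0512). The list made for genes that beta cells normally keep off, 21 tested, gave 0 higher and 2 lower, against 3.43% and 4.75% of all genes. The 2 were the monocarboxylate transporter Slc16a1 at -0.89 and the DNA methyltransferase Dnmt3a at -0.88. Dnmt3a was at 7.65 and 7.71 in lean islets, so its fall is not that of a gene kept off.

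Of 18 tested alpha, delta and PP cell genes 0 rose and 7 fell, against 4.75% of all genes that fell. Differences below 0 numbered 13, the median was -0.62, and 1 fell with either ob/ob array left out. Ghsr, the ghrelin receptor, was at 4.66 and 4.82 in ob/ob islets, against 6.59 and 6.33 in lean islets, a difference of -1.72 ± 0.15 (adjusted p = 0.0179). Ghrl, its ligand ghrelin, was at 5.05 and 4.70 in ob/ob islets, against 6.41 and 6.39 in lean islets, a difference of -1.53 ± 0.16. Rbp4, the retinol carrier that marks delta cells in mouse islets, was at 8.03 and 8.23 in ob/ob islets, against 9.83 and 9.56 in lean islets, a difference of -1.56 ± 0.16. None of these 3 overlapped. The alpha-cell transcription factors Irx1 and Irx2 fell by 1.47 and 1.69, Pou3f4 by 1.09 and the arginine transporter gene Slc7a2 by 0.94. The hormone genes were not called: Gcg differed by -0.26 ± 0.12, Sst by -0.33 ± 0.13, and Ppy, pancreatic polypeptide, was at 12.42 and 12.54 in ob/ob islets, against 12.97 and 13.03 in lean islets (adjusted p = 0.0686).

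Receptors for hormones, transmitters and nutrients gave 2 higher and 6 lower of 34, against 3.43% and 4.75% of all genes. Avpr1b, a vasopressin receptor, was at 3.78 and 4.22 in ob/ob islets, against 5.85 and 5.85 in lean islets, a difference of -1.85 ± 0.18 (adjusted p = 0.0206). Ffar4, a receptor for long-chain fatty acids, was at 5.32 and 5.54 in ob/ob islets, against 7.04 and 6.81 in lean islets, a difference of -1.49 ± 0.15. Sstr2, a somatostatin receptor, was at 4.38 and 4.95 in ob/ob islets, against 6.34 and 6.15 in lean islets, a difference of -1.58 ± 0.23. All ob/ob arrays were below all lean arrays in these genes. The glucagon receptor gene Gcgr fell by 0.82 and the orphan receptor gene Gprc5c by 1.02, while Vipr2, a receptor for the peptides VIP and PACAP, rose by 1.03 ± 0.17 and the purine receptor gene P2ry1 by 0.71.

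More of the listed ion channel genes fell than rose, as was also so among all genes (3.43% higher and 4.75% lower). Of 32 calcium, sodium and TRP channel genes 1 rose and 10 fell, with a median of -0.48, and with either ob/ob array left out 1 rose and 1 fell. Cacna1c, a pore subunit of the L-type calcium channel, was at 6.74 and 6.69 in ob/ob islets, against 7.56 and 7.67 in lean islets, a difference of -0.90 ± 0.12 (adjusted p = 0.0308). Scn8a, a voltage-gated sodium channel, was at 5.59 and 5.65 in ob/ob islets, against 6.51 and 6.39 in lean islets, a difference of -0.83 ± 0.12. The other pore subunits Cacna1a, Cacna1b and Cacna1h fell by 0.91, 0.86 and 1.54, the auxiliary subunits Cacna2d2 and Cacng4 by 0.76 and 0.998, the ER calcium pump gene Atp2a2 by 0.65 and Trpc5 by 1.12. Trpc4 rose instead, at 7.01 and 6.95 in ob/ob islets, against 5.41 and 5.38 in lean islets, a difference of 1.59 ± 0.12. Of 25 potassium channel genes 2 rose (Kcnk1 and Kcns3) and 4 fell. Kcng3, a modifier subunit of voltage-gated channels, was at 5.53 and 6.06 in ob/ob islets, against 7.83 and 7.92 in lean islets, a difference of -2.08 ± 0.21, and Kcnj3, a G protein-gated channel, at 4.15 and 4.42 in ob/ob islets, against 6.14 and 5.82 in lean islets, a difference of -1.70 ± 0.18. Kcnd2 fell by 1.13 and Kcnj6, the partner of Kcnj3, by 0.63. Among 34 neuronal-type genes that islets use 2 rose and 7 fell. Eef1a2, a translation elongation factor of neurons and muscle, was at 5.69 and 5.48 in ob/ob islets, against 7.58 and 7.52 in lean islets, a difference of -1.97 ± 0.14 (adjusted p = 0.0155). Kif5a, a kinesin, fell by 1.71 and Gad1, which makes GABA, by 1.76, while Dcx, doublecortin, rose by 0.96 ± 0.13. In the exocytosis machinery 0 of 20 rose and Cadps, a granule priming factor, fell by 0.79, so 5% fell, near the share of all genes that fell.

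Clock genes were called in a larger share than any other list tested here. Of 17 genes 1 rose and 7 fell, against 3.43% and 4.75% of all genes, with a median of -0.59. With 1 array left out the median lay between -0.75 and -0.44, and 2 members were called without ob/ob replicate 1 and 0 without any other array. Dbp, an output factor of the clock, had log2 signals of 6.88 and 6.77 in ob/ob islets, against 8.39 and 9.05 in lean islets, a difference of -1.90 ± 0.25 (adjusted p = 0.0296). Nr1d2, a repressor of Arntl, was at 7.09 and 6.91 in ob/ob islets, against 8.48 and 8.54 in lean islets, a difference of -1.51 ± 0.13 (adjusted p = 0.0173). Npas2, which can stand in for Clock, rose, at 7.81 and 7.70 in ob/ob islets, against 6.70 and 6.42 in lean islets, a difference of 1.20 ± 0.15. The called repressor genes and Npas2 moved in opposite directions. Cry1, a repressor that was not called, was at 6.93 and 6.19 in ob/ob islets, against 5.60 and 5.64 in lean islets, so it differed upward like Npas2. Nr1d1 fell by 1.57, Per3 by 1.60, Bhlhe41 by 1.29, Bhlhe40 by 0.78 and Ciart by 0.74. The labels give no time of day for the collection of islets. Immediate-early genes gave 2 higher and 6 lower of 27, against the same shares of all genes. Npas4, an activity-induced factor, was at 2.97 and 2.96 in ob/ob islets, against 5.41 and 5.55 in lean islets, a difference of -2.52 ± 0.12 (adjusted p = 0.0123). Fosb was at 6.33 and 5.85 in ob/ob islets, against 8.09 and 7.76 in lean islets, a difference of -1.83 ± 0.22, and Egr1 at 7.39 and 7.26 in ob/ob islets, against 8.44 and 8.52 in lean islets, a difference of -1.15 ± 0.13. Fos, Klf4 and Klf6 fell by 0.74, 0.71 and 0.88, while Nr4a2 rose by 1.07 ± 0.13 and Egr2 by 0.70. Gadd45b, a stress-induced gene of the apoptosis list, was at 7.17 and 7.53 in ob/ob islets, against 9.13 and 9.24 in lean islets, a difference of -1.83 ± 0.17, and with Apaf1, a subunit of the apoptosome, it made up the 2 of 28 genes of that list that fell, with 0 higher.

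Metabolic lists were called at shares between 5.88% (lipid uptake, storage and oxidation) and 20.6% (antioxidant genes). Of all genes 8.18% were called, 3.43% higher and 4.75% lower. Of 34 antioxidant genes 3 rose and 4 fell. The metallothionein genes Mt2 and Mt1, which bind zinc, fell together. Mt2 was at 9.32 and 9.39 in ob/ob islets, against 11.35 and 11.34 in lean islets, a difference of -1.99 ± 0.12 (adjusted p = 0.0126), and Mt1 at 8.57 and 8.60 in ob/ob islets, against 10.04 and 10.07 in lean islets, a difference of -1.47 ± 0.12. Gstm1 and Nqo1, detoxifying enzymes, fell by 1.27 and 0.84. Osgin1 rose, at 8.05 and 8.03 in ob/ob islets, against 6.39 and 6.19 in lean islets, a difference of 1.75 ± 0.13 (adjusted p = 0.0155), as did the ER peroxiredoxin gene Prdx4 by 1.29 and Sod3. In branched-chain amino acid breakdown, for which no list was made, the transaminase genes Bcat1 and Bcat2 rose by 1.56 ± 0.18 and 1.10 ± 0.12, and Bckdhb, a subunit of the next enzyme, was at 8.80 and 8.82 in ob/ob islets, against 7.27 and 7.48 in lean islets, a difference of 1.43 ± 0.13. Ivd, an enzyme of leucine breakdown, fell by 0.79. Me3, the mitochondrial malic enzyme, rose by 1.502 ± 0.21. In lean KsJ islets of 16 weeks, Bcat2 stood at 5.67 on replicate 1 and 7.98 on replicate 2, the array with the high acinar signal. Bckdhb stood at 6.94 and 8.04 there, Bcat1 at 2.98 and 3.46, Me3 at 3.89 and 5.33, and Ivd at 8.21 and 8.90. The part of acinar RNA in these differences was not tested. In the list of the tricarboxylic acid cycle and the reactions feeding it 4 of 35 rose and 1 fell.

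Of 39 respiratory chain genes 34 had a difference above 0, against 47.6% of all genes, with a median of 0.31. By the test 3 rose and 1 fell. The counts in this paragraph stand against 3.43% of all genes higher and 4.75% lower. Cycs, cytochrome c, was at 10.000 and 10.16 in ob/ob islets, against 9.004 and 9.12 in lean islets, a difference of 1.02 ± 0.13, and Ndufa1, a complex I subunit, rose by 1.11 ± 0.17. Cox6a2, a cytochrome oxidase isoform, was at 8.46 and 8.44 in ob/ob islets, against 9.89 and 9.31 in lean islets, a difference of -1.15 ± 0.22. Sterol and fatty acid synthesis gave 0 higher and 3 lower of 27. Scd1, which desaturates stearate, was at 4.53 and 4.69 in ob/ob islets, against 6.19 and 5.996 in lean islets, a difference of -1.49 ± 0.14 (adjusted p = 0.0204), Srebf2, the regulator of sterol synthesis, fell by 1.16 and Hmgcs1, an early enzyme of the pathway, by 1.03. Of 34 genes of lipid uptake, storage and oxidation Pdk4 and Lpl fell and 0 rose. Among 17 genes of the glucose-sensing factor ChREBP, Pklr fell by 0.68, Khk by 0.98, and Tubb6 rose by 1.97 ± 0.15. Txnip, a strong target of glucose, was at 10.97 and 10.65 in ob/ob islets, against 10.96 and 11.17 in lean islets and was not called. Glycolysis and hypoxia genes gave 1 higher and 2 lower of 29, with Pgk1 at 0.74, Aldoc at -1.21 and Vegfa at -0.62.

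Insulin and IGF signalling gave 1 higher and 4 lower of 27, against 3.43% and 4.75% of all genes, and 22 differences were below 0. Irs1, the docking protein of the insulin receptor, was at 5.13 and 4.95 in ob/ob islets, against 6.14 and 6.89 in lean islets, a difference of -1.47 ± 0.27 (adjusted p = 0.0461). Igf1r, the IGF receptor, was at 7.35 and 7.24 in ob/ob islets, against 8.14 and 8.59 in lean islets, and Grb10, an adaptor that inhibits both receptors, at 6.43 and 6.97 in ob/ob islets, against 8.06 and 7.99 in lean islets, differences of -1.07 ± 0.19 and -1.32 ± 0.21. The lean arrays of Irs1 were further apart than those of the others. The binding protein genes moved in opposite directions, with Igfbp3 at 9.21 and 9.37 in ob/ob islets, against 7.98 and 8.10 in lean islets, a difference of 1.25 ± 0.13, and Igfbp5 at 5.36 and 5.83 in ob/ob islets, against 7.001 and 6.99 in lean islets, a difference of -1.40 ± 0.19. Of 21 genes of prolactin, serotonin and leptin signalling 1 rose and 3 fell. Tnfrsf11b, osteoprotegerin, rose by 1.77 ± 0.16, while the serotonin receptor gene Htr3a fell by 1.39, Maob, which degrades amines, by 0.96 and Ivd by 0.79. Tph1, which makes serotonin, was dim. Lepr, the leptin receptor gene, was at 2.51 and 3.49 in ob/ob islets, against 2.93 and 3.39 in lean islets and was not called. Its difference of -0.16 had the opposite sign, 0.33 and 0.07, without ob/ob replicate 1 and without lean replicate 2.

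The imprinted region from Dlk1 to Dio3 on chromosome 12 carries a large cluster of microRNA (miRNA) genes expressed from the maternal copy. It was taken as a list after Mir323 appeared among the genes that fell most. Of 39 tested genes 0 rose and 15 fell, against 4.75% of all genes that fell, with 35 differences below 0 and a median of -0.85. Called members numbered 4 without ob/ob replicate 1 and 7 without replicate 2, all lower. The miRNA genes made up 30 of the 39, with 28 below 0, 14 called lower and a median of -0.905, whereas 136 miRNA genes elsewhere gave 10 lower, 1 higher and a median of -0.04. The mature sequences of the 4 called miRNA genes with the most negative differences are shown with their seeds, bases 2 to 8, in capitals, as RefSeq gives them.
mmu-miR-323-5p: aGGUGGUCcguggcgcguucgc
mmu-miR-323-3p: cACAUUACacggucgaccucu
mmu-miR-300-5p: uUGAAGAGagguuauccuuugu
mmu-miR-300-3p: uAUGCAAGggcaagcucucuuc
mmu-miR-377-5p: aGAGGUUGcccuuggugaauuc
mmu-miR-377-3p: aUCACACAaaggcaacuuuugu
mmu-miR-1193-5p: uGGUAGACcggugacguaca
mmu-miR-1193-3p: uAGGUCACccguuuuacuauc
No 2 of the mature forms of the 14 called genes share a seed, so they do not form 1 seed family. Mir323 had log2 signals of 3.64 and 3.03 in ob/ob islets, against 5.60 and 5.87 in lean islets, a difference of -2.40 ± 0.24 (adjusted p = 0.0207). Mir300 was at 3.85 and 3.52 in ob/ob islets, against 5.84 and 5.68 in lean islets, a difference of -2.08 ± 0.17. Mir1193 was at 3.72 and 3.71 in ob/ob islets, against 5.37 and 5.30 in lean islets, a difference of -1.62 ± 0.12. Mir377 was at 2.70 and 2.64 in ob/ob islets, against 4.93 and 4.46 in lean islets, with ob/ob signals under the cutoff for dim genes. The called member without a miRNA symbol was DQ267101, with a difference of -1.90. It was at 3.41 and 3.46 in ob/ob islets, against 5.41 and 5.25 in lean islets. The long host transcripts were not called, with Meg3 at 4.14 and 4.86 in ob/ob islets, against 4.89 and 4.47 in lean islets, Rian at 9.68 and 9.49 in ob/ob islets, against 10.11 and 10.01 in lean islets and the protein-coding Dlk1 at 3.72 and 3.96 in ob/ob islets, against 4.26 and 4.75 in lean islets. The Meg3 arrays overlapped between the groups. An array cluster for a miRNA gene can read the precursor or the host transcript, so mature miRNA was not measured.

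Lists of further cell types held from 6 to 34 tested genes and were called at shares between 0% and 27.3% (Schwann cell and peripheral neuron), against 8.18% of all genes. Of 29 macrophage and myeloid genes 0 passed in limma, with 2 at an unadjusted p below 0.05 and a median of 0.03. In the matrix and stellate list 1 of 34, the laminin gene Lama2, fell by 1.53, and in the endothelial list 1 of 21, Plvap, rose by 0.70. Of 11 Schwann cell and peripheral neuron genes 3 fell (Scn7a by 1.59, Sema3e by 1.29 and Gap43 by 0.87) and 10 differences were below 0. Of 14 lymphocyte genes Nkg7 rose by 0.99 and Cd79a fell by 1.14, both at low signal. The 27 enterocyte genes with a cluster, 9 of them dim, averaged 4.15 and 4.25 in ob/ob islets, against 4.09 and 4.05 in lean islets. Among the 18 tested, Khk fell and Apob rose, and the lean signals of Apob (2.27 and 2.59) lay under the cutoff for dim genes. Of 12 goblet and Paneth cell genes the chemokine gene Ccl28 rose by 1.66 beside Reg3b. Cldn4 fell by 0.84 among 20 duct genes, and 0 of 8 adipocyte genes passed (2 at an unadjusted p below 0.05). The 6 tested Reg genes, which acinar cells make in quantity, all differed upward, with a median of 1.78, while Reg3b alone was called, and Reg2 was at 8.95 and 7.32 in ob/ob islets, against 5.69 and 4.06 in lean islets (adjusted p = 0.0641).

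No interferon or antigen presentation gene of 32 was called in limma, and 3 higher and 3 lower had an unadjusted p below 0.05. The list's median was 0.30, but -0.40 without ob/ob replicate 2 and 0.83 without ob/ob replicate 1. Ifit1, an antiviral gene, stood at 3.70 and 8.39 in ob/ob islets, against 5.84 and 5.53 in lean islets, and the interferon regulator Irf7 at 5.12 and 8.83 in ob/ob islets, against 5.98 and 5.28 in lean islets, both picked for their values. Cxcl10, an interferon-induced chemokine, was at 3.95 and 8.36 in ob/ob islets, against 4.23 and 3.55 in lean islets. Replicate 2 of ob/ob islets was far above the other 3 arrays in each.

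**Figure D4:**
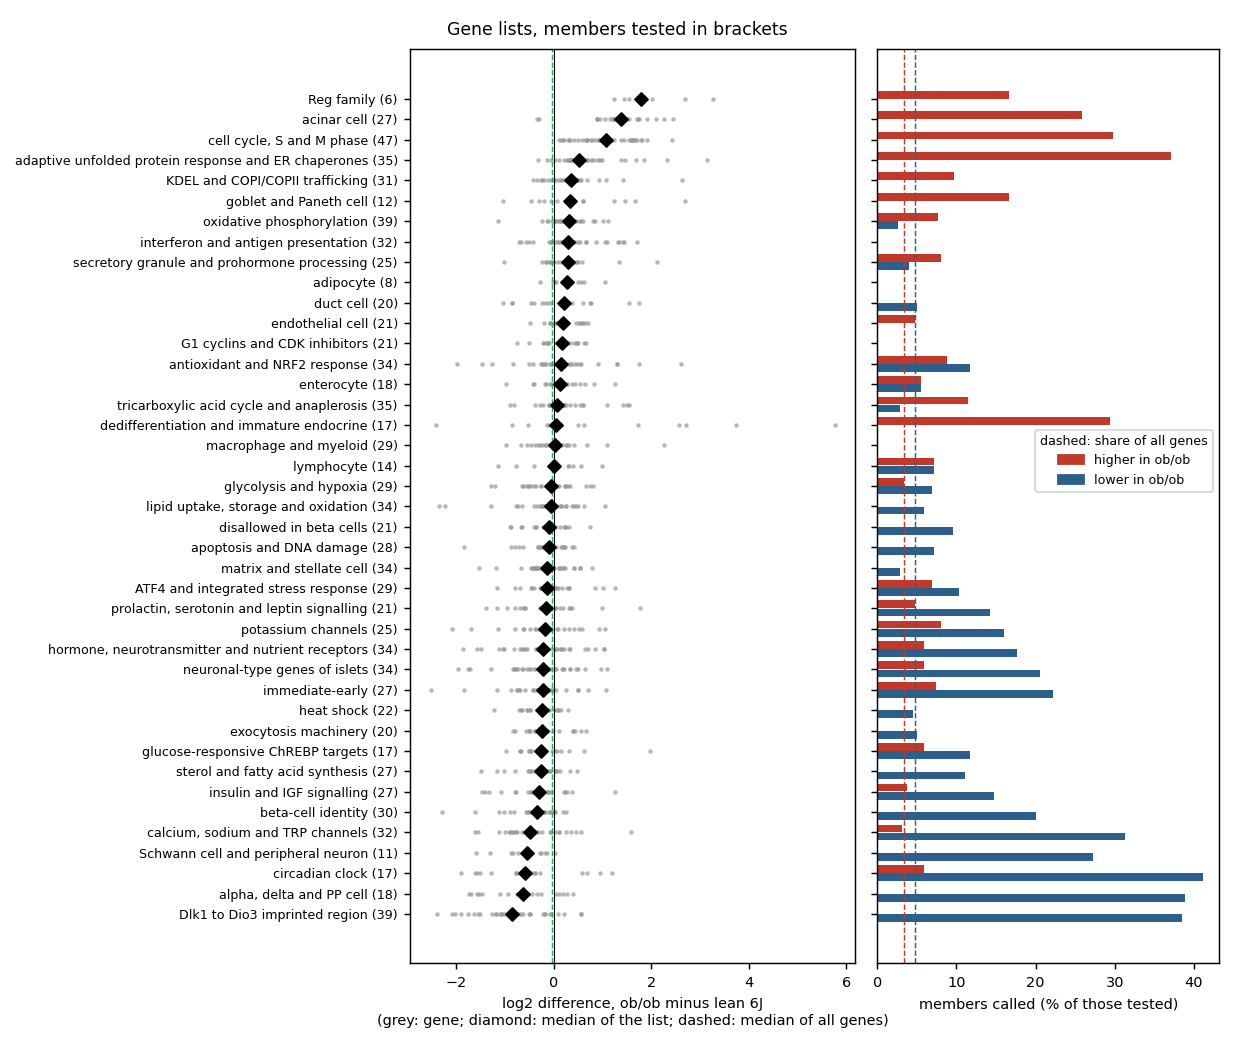
Left, log2 difference between ob/ob and lean 6J islets for each tested member of 41 gene lists (grey) with the median of each list (diamond), ordered by median. Right, members called higher (red) and lower (blue) in ob/ob islets as a percentage of those tested, with dashed lines at the share of all genes (3.43% higher and 4.75% lower). Reg, acinar, cell cycle and ER genes stand at the top and the Dlk1 to Dio3 region, other endocrine cells and clock genes at the bottom.

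The ob/ob difference at 16 weeks was set beside 2 other comparisons that share none of its arrays. The difference of the 16-week effects, ob/ob in 6J minus db/db in KsJ, gave 0 called genes of 15526 (0% by this rule) in limma on 8 arrays, with 1725 genes at an unadjusted p below 0.05 and a smallest adjusted p of 0.315. When all 16 arrays shared the spread 4 genes passed, with 13 arrays 5, without lean KsJ replicate 2 or db/db replicate 1 there was 1, with 12 arrays 7, and without lean KsJ replicate 1 there were 3608. In that last fit the lean KsJ group was replicate 2 alone, the array with the high acinar signal. Model and strain go together in these arrays and cannot be told apart. Uty and Xist differed too: lean KsJ replicate 1 had Uty at 7.86 and Xist at 3.24, whereas Uty was dim on both db/db arrays (2.29 and 2.61), on lean KsJ replicate 2 (2.48) and on all 4 6J arrays, so values against lean KsJ replicate 1 alone set Uty-dim arrays against a Uty-bright one. No gene is therefore called particular to ob/ob islets, and values are given side by side.

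Aldh1a3, Serpina7 and Gucy2c were higher in both models, by 5.77, 3.74 and 2.71 in ob/ob islets, and by 6.22, 5.29 and 4.39 in db/db islets. Kdelr3 differed by 2.63 in ob/ob islets and 2.52 in db/db islets, and Slc2a2 by -0.90 and -1.05. Derl3 differed by 3.14 in ob/ob islets, and in db/db islets by 0.51, or 1.44 against lean KsJ replicate 1 alone. The ER list had medians of 0.52 in ob/ob and 0.53 in db/db islets. S and M phase genes had a median of 1.07 in ob/ob islets and 0.10 in db/db islets, or -0.12 against lean KsJ replicate 1 alone. Calcium, sodium and TRP channels stood at -0.48 in ob/ob islets and 0.51 in db/db islets (0.18 against replicate 1 alone). Eef1a2 differed by -1.97 in ob/ob islets and by 0.37 in db/db islets, and the test of the difference gave an adjusted p of 0.315. Kcnj3 differed by -1.70 in ob/ob and 0.42 in db/db islets (adjusted p of the difference 0.315). The macrophage list stood at 0.03 in ob/ob islets and 1.12 in db/db islets, the matrix list at -0.13 and 0.97. All genes had medians of -0.02 in ob/ob islets and 0.18 in db/db islets.

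The 2 arrays labelled ob/ob at 6 weeks stood apart from each other. Aldh1a3 had log2 signals of 10.52 and 5.43 in 6-week ob/ob islets, against 4.70 and 4.77 in 6-week lean 6J islets. Serpina7 had 10.58 and 7.02 in 6-week ob/ob islets, against 7.04 and 6.28 in 6-week lean islets, and Derl3 had 10.17 and 7.88 in 6-week ob/ob islets, against 7.34 and 6.81 in 6-week lean islets. Replicate 1 of 6-week ob/ob islets lay near the 16-week ob/ob arrays in these genes, while replicate 2 lay nearer the lean arrays. Aldh1a3 differed by 5.77 at 16 weeks and by 3.24 at 6 weeks, or 5.79 at 6 weeks without ob/ob replicate 2. Serpina7 differed by 3.74 at 16 weeks and by 2.14 at 6 weeks (3.92 without that array), and Derl3 by 3.14 and 1.95 (3.09 without it). The smaller 6-week values of these 3 genes therefore rest on 1 array. Vgf differed by 2.11 at 16 weeks and 2.09 at 6 weeks, or 3.42 without that array. Gucy2c differed by 2.71 at 16 weeks and by 0.70 at 6 weeks, which became 1.84 without ob/ob 6-week replicate 2 and 1.17 without lean 6-week replicate 2, an array with high enterocyte signal. Mt2 differed by -1.99 at 16 weeks and by -0.20 at 6 weeks, or -0.42 without ob/ob replicate 2 and -0.35 without lean replicate 2. The ER list had a median of 0.52 at 16 weeks and 0.36 at 6 weeks, between 0.17 and 0.48 with 1 of the 6-week arrays left out. The S and M phase list had 1.07 at 16 weeks and 0.21 at 6 weeks, with values between -0.07 and 0.47 with 1 array left out. The Dlk1 to Dio3 region had -0.85 at 16 weeks and -0.30 at 6 weeks, between -0.57 and -0.06 in the same way. With ob/ob replicate 2 and lean replicate 2 both left out, 1 array a group remained at 6 weeks. The region then stood at -0.75, S and M phase genes at 0.67 and the ER list at 0.38. Gucy2c differed by 2.31 and Mt2 by -0.57 between those arrays. The difference of the effects, 16 minus 6 weeks, gave 0 called genes (0% by this rule) in limma on 8 arrays, with 746 at an unadjusted p below 0.05 and a smallest adjusted p of 0.914, and 0 genes without ob/ob 6-week replicate 2. Without lean 6J 6-week replicate 1, which leaves replicate 2 as the only 6-week lean array, 229 genes passed. Uty was at 7.24 and 7.61 in 6-week ob/ob islets, against 7.54 and 2.31 in 6-week lean islets, while it was dim on all 16-week 6J arrays. Age and the Uty and Xist signals therefore go together in the ob/ob arrays and cannot be told apart.

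**Figure D5:**
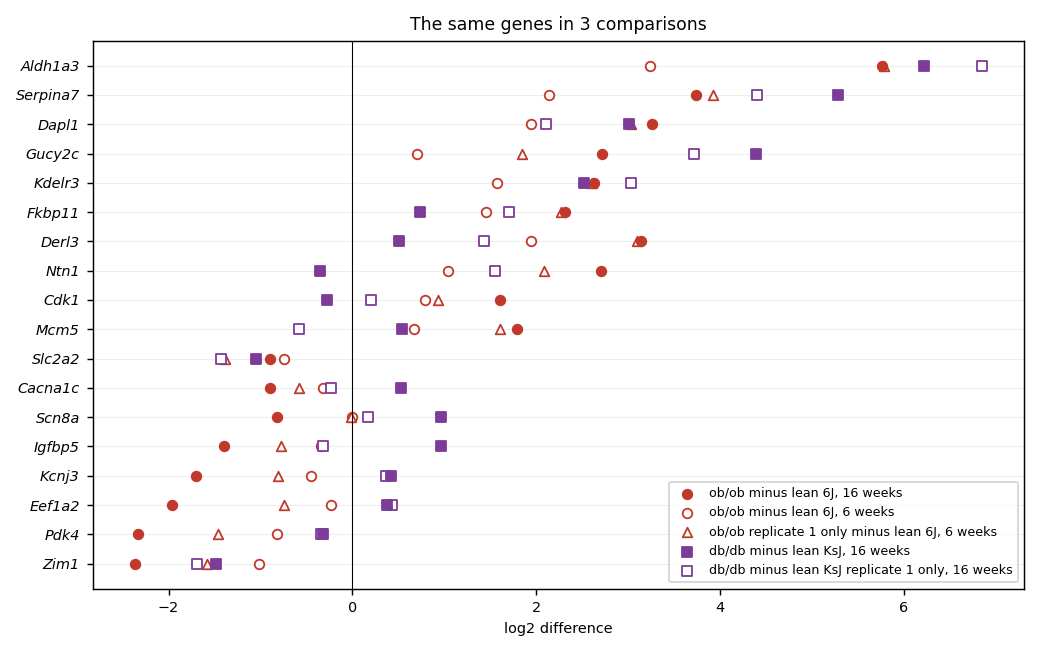
Log2 difference of 18 named genes in ob/ob against lean 6J islets at 16 weeks (filled circles) and at 6 weeks (open circles; triangles use 6-week ob/ob replicate 1 alone) and in db/db against lean KsJ islets at 16 weeks (filled squares; open squares use lean KsJ replicate 1 alone). Aldh1a3 and Serpina7 lie above 2 in each comparison, whereas Eef1a2 and Kcnj3 lie below -1.5 for 16-week ob/ob islets and above 0 for db/db islets.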

How the data were processed

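The authors deposited log2 signals for transcript clusters on 16 arrays (8 groups of 2), and a smaller table of 2 arrays from KsJ mice was not used. Per the submitters' processing notes the tools were MAS5, RMA and Partek. What each tool did, its version and any background correction are not given here. Array medians of the 4 arrays were 3.51 and 3.54 in ob/ob islets and 3.59 and 3.56 in lean islets.

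Of 41034 clusters the platform annotation gave 1 gene for 23521, several for 1814 and no row for 15699. For 23328 clusters the Entrez ID was found in the RefSeq table of GRCm38.p6, the build of all coordinates given, and the symbol was taken from there. The cluster with the highest mean over the 4 arrays stood for a gene, which gave 22180 genes, and those below the 30th percentile of that mean (2.94 on the log2 scale) were left out as dim. limma 3.58.1 in R 4.3.3 (lmFit and eBayes) tested 15526 genes, two-sided, with Benjamini-Hochberg adjustment, 2 residual and 2.87 prior degrees of freedom. Differences between effects were fitted on 8 arrays for the same genes. The fit was tested on simulated data. Of 1088 genes in 39 planned lists 932 were tested, 68 were dim, 23 stood only in rows of several genes and 65 had no row, and the last 2 groups were not analysed here. A further 2 lists were added after the values were seen. The average signal of a list on an array was taken over its tested and dim members.

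The rule for named genes took the 15 called genes with the most positive and the 15 with the most negative difference that are not predicted genes and whose arrays did not overlap, up to 5 called members per list by p with up to 2 uncalled ones by size, and a set of islet and control genes. Further called list members are named with their difference and were chosen after their values were seen, as were Ifit1, Irf7, Mamld1, Gfra3, Drc1, Gm16702 and Gm20554. The arrays compared, the lists and the tests were chosen with earlier results of these data known. Alternatives were other filters, quantile normalization, median centring, other variance models, all 16 arrays, averaging of clusters, a log2 change of at least 1 and each array left out. A fit of 13 arrays was added after seeing the data. It left out lean KsJ 16-week replicate 2, lean 6J 6-week replicate 2 and db/db 16-week replicate 2. A fit of 12 arrays, which also left out ob/ob 6-week replicate 2, was added in the same way. So were the 6-week values with arrays left out. Genes with near-identical copies (Prss1, Serpina1d, Reg genes) can share signal. Plots used matplotlib 3.10.9 (Python 3.11.15).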

Additional observations from a re-analysis of the deposited data

How the results depend on the processing

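The count of 1270 genes called between ob/ob and lean 6J islets became 2554 with a filter at the 50th percentile, 478 with no filter, 3546 with a trended and robust variance, 1 with no variance moderation, 2 when a log2 change of at least 1 was required, 38 when all 16 arrays shared the variance and 116 with 13 arrays (39 higher and 77 lower), while 12 arrays gave 1442 (617 higher and 825 lower). Leaving out 1 array gave counts between 0 and 183. Quantile normalization gave 1217 and the mean over clusters 1235. Median centring gave 1190 and moved the share of higher genes among those called to 52.6% (626 higher and 564 lower), against 42.0%, and the median of all genes was 0.03, against -0.02. Of 203 called genes named in the text, all 203 kept their direction in the settings that tested them. Of these, 187 stayed called under quantile normalization and 187 under median centring. With no filter 121 stayed called, without an ob/ob array 69 and 59, and with all 16 arrays 16. The difference from the db/db effect, 0 genes, became 4 with all 16 arrays, 5 with 13 arrays, 7 with 12 arrays and between 0 and 3608 with 1 array left out. The difference between ages, 0 genes, became 1 with no variance moderation and between 0 and 229 with 1 array left out. Signs turned for some genes that were not called, among them G6pc2, at -0.0696 under quantile normalization. With 1 array left out Lepr ranged from -0.66 to 0.33, Ifit1 from -1.99 to 2.70 and Irf7 from -0.51 to 3.19. Where a call was lost the cause was not tested. No paired analysis was possible because the titles carry no replicate numbers that groups share.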

Other observations

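Predicted genes were kept out of the named genes by the rule, and 2 of them, chosen after their values were seen, had the largest differences after Aldh1a3. 1810009J06Rik, a trypsin-like gene, was at 9.16 and 8.06 in ob/ob islets, against 3.62 and 3.04 in lean islets, a difference of 5.28 ± 0.41 (SE). Gm2663, another trypsin-like gene, was at 8.88 and 7.61 in ob/ob islets, against 2.97 and 3.60 in lean islets, a difference of 4.95 ± 0.47. In both the ob/ob replicate with the higher acinar signal, replicate 1, was the higher. Their adjusted p in limma was 0.0155 and 0.0202. Of the 1270 called genes 49 had a group mean under the cutoff for dim genes, so the size of their difference depends on values near the floor.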
